A study of Mus musculus with 12 samples.

Results

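The interleukin receptor genes examined here were Il2ra, Il2rb, Il2rg, Il7r, Il4ra, Il21r, Il15ra, Il12rb1, Il12rb2 and Il18r1. They were chosen by name, and their identifiers were looked up by symbol in GENCODE mouse release M21. All 10 were found in both deposited count tables, among 55487 gene identifiers in each. All 10 also passed the low-count filter in both tables. RNA had been sequenced from OT-1 CD8+ T cells of mouse spleen in 12 samples, 3 in each of 4 groups. OT-1 mice bear a T cell receptor transgene, so their CD8 T cells recognise a single peptide of ovalbumin. Female and Male cells were stimulated with anti-CD3/CD28 beads together with mouse recombinant IL2 and collected after 3 days. WT and KD cells were a separate batch of male cells that were electroporated and collected after 3 days of culture. KD cells were given Cas9 with guide RNA against Kdm5d, a Y-linked histone demethylase gene, and WT cells were given guide RNA without Cas9. Cells of all 4 groups grew in medium with mouse recombinant IL2, per the labels' protocols. How WT and KD cells were stimulated, and the age and number of the mice and the number of cultures, were not given in the sources used here. The p-values therefore measure the spread between these samples, which may be technical.

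These receptors tell a T cell which interleukins it can sense. The IL-2 receptor is built from the alpha chain Il2ra (CD25), the beta chain Il2rb (CD122) and the common gamma chain Il2rg (CD132). The alpha chain raises the affinity for IL-2, and the beta and gamma chains carry the signal through JAK1, JAK3 and STAT5. IL-15 uses the same beta and gamma chains with its own alpha chain, Il15ra. IL-7, IL-4 and IL-21 each pair a private chain (Il7r, Il4ra, Il21r) with the gamma chain. Il12rb1 and Il12rb2 form the IL-12 receptor, which signals through STAT4, and Il18r1 binds IL-18 and signals through MYD88. In CD8 T cells, Il7r is known as a marker of naive and memory cells and Il2ra as a marker of activated cells.

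Total counts were between 78748647 and 110803318 per library. Kdm5d had between 4584 and 4755 counts in the Male libraries, and between 0 and 2 in the Female libraries. It had between 5001 and 5290 counts in WT and between 1714 and 2364 in KD, which was 43.3% of WT after scaling (edgeR adjusted p = 3.13e-08). The 8 CD8 T cell markers were present, and summed to between 1930 and 1970 CPM (counts relative to the library total, scaled by TMM) in Female and between 1780 and 1820 in Male, where 5 of the 8 were called lower. They summed to between 2010 and 2070 CPM in WT and between 1880 and 1940 in KD, where 4 were called lower and 1 higher. Of all genes tested (test given below), 26.3% were called lower in Male, and 18.4% lower and 16.8% higher in KD. The B cell marker Ms4a1 and the NK cell marker Klra8 were at 0 in each Female and Male library, but other members of their lists were detected. Mean CPM in Female and Male was 2.9 and 3.4 for Cd79b and 0.99 and 0.81 for Cd79a (B cell). It was 0.3 and 0.5 for Klrb1c (NK cell). The 3 platelet markers summed to between 6.76 and 7.97 CPM in Female and to between 0.984 and 1.44 CPM in Male, and Ppbp was at 0 in Male. The 3 markers of CD4 and regulatory T cells summed to between 87.2 and 89.6 CPM in Female and between 53.9 and 57.3 CPM in Male, most of it Zbtb7b. Zbtb7b was called lower in Male, as was Cd4, at a mean of 0 CPM against 0.182 in Female. Foxp3 was called higher in Male, at 4.38 CPM against 2.82 in Female. In WT and KD those 3 genes summed to between 39.9 and 45.9 CPM and the platelet markers to between 0.57 and 1.32 CPM. The 6 macrophage or monocyte markers summed to between 6.2 and 7.23 CPM in WT and between 4.42 and 5.38 in KD, and to between 2.27 and 3.51 CPM in Female and Male. The 4 dendritic cell markers summed to between 6.17 and 6.41 CPM in WT and between 4.13 and 4.93 in KD, and reached at most 4.22 CPM in Female and Male. The B cell list reached at most 6.49 CPM, the NK cell list 1.68, the neutrophil list 0.466 and the erythroid list 0.0339 CPM in any library. The part of these cells in the differences between groups was not tested. In bulk RNA, fewer cells that express a gene and less RNA per cell cannot be told apart.

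The receptor genes lie at 8 chromosomal places, since 2 pairs are close neighbours. In GENCODE M21 (GRCm38, the same assembly as the mm10 build named in the submitters' processing notes), Il2ra is at chr2:11642807-11693193 and Il15ra at chr2:11705290-11734317, both on the plus strand and 12.1 kb apart. Il4ra is at chr7:125552120-125579474 and Il21r at chr7:125603429-125633570, both on the plus strand and 24.0 kb apart. No other annotated gene lies in either gap. Il7r is at chr15:9505788-9530176 and Il2rb at chr15:78479256-78495271. Il2rg is at chrX:101264378-101268255, Il12rb1 at chr8:70808449-70821424, Il12rb2 at chr6:67291318-67376188 and Il18r1 at chr1:40465552-40500854. Each is a protein-coding gene.

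How strongly each receptor was expressed was compared per length, as CPM divided by the kilobases of all annotated exons of the gene. Il2rb, Il2ra and Il2rg, the chains of the IL-2 receptor, were the highest of the 10 in each group, in that order. In Male they were at 303.5 ± 5.64, 191.4 ± 1.98 and 112.7 ± 1.75 CPM per kb (SD, n = 3). Il15ra was the lowest of the 10 in each group, between 2.82 CPM per kb in Female and 3.99 in Male. Its counts, between 1013 and 1737 per library, still gave a close spread. Il7r was at 29.8 ± 0.469 CPM per kb in Female, at 5.21 ± 0.22 in Male, at 4.75 ± 0.202 in WT and at 8.25 ± 0.591 in KD (SD, n = 3).

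The middle of the order changed places between groups. In Female, Il4ra (73.9 CPM per kb), Il12rb2 (70.2) and Il21r (62.1) followed the IL-2 receptor chains, and Il12rb1 (23.2) was below Il18r1 (37.2) and Il7r (29.8). In Male, Il12rb1 (39.5 CPM per kb) was above Il18r1 (24.8) and Il7r. Within a group, neighbours in this order had separate ranges over the 3 libraries in each case but 1. The exception was Il12rb2 and Il12rb1 in KD, whose ranges were 53.9 to 55.8 and 52.9 to 54.1 CPM per kb. With the longest transcript as the length, Il2ra was above Il2rb in Female, at 208.2 against 184.1 CPM per kb, and Il15ra was above Il7r in Male, at 7.66 against 6.87. The rank of Il4ra in WT went from 4 to 7 with that length, so the order among close neighbours depends on the annotation. The 2 tables were scaled separately, so levels of Female and Male are not on one scale with those of WT and KD.

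**Figure D1:**
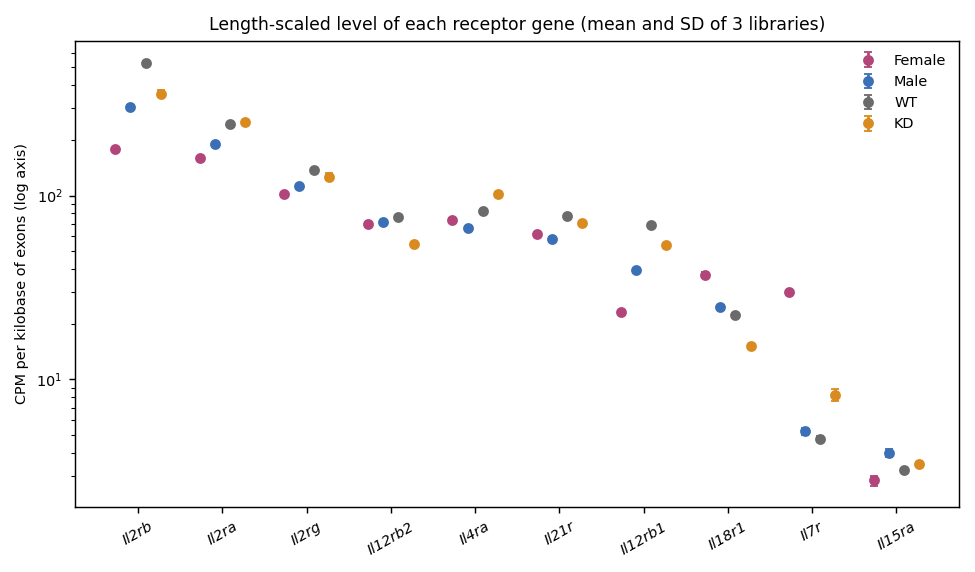
Mean level of each receptor gene in CPM per kilobase of exons (vertical log axis) for the 4 groups, with the SD of 3 libraries as bars. Il2rb, Il2ra and Il2rg lead in each group, and Il7r is clearly higher in Female than in Male.

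Differences between the sexes were examined in Male against Female. The number of mice and cultures was not given, so sex and differences between single animals or cultures cannot be told apart. Of the 10 receptor genes, 5 rose in Male (Il2ra, Il2rb, Il2rg, Il15ra and Il12rb1), 4 fell (Il7r, Il4ra, Il21r and Il18r1) and Il12rb2 did not pass the test. Changes are given as the log2 of the fold change (log2 change) with its standard error (SE). The test was edgeR's quasi-likelihood test, and a gene was called at a Benjamini-Hochberg adjusted p under 0.05 over the 20208 genes tested. Among all of those genes, 49.8% were called, 23.5% higher and 26.3% lower in Male. The median of the 10 log2 changes was 0.09, against 0.01 over all genes tested, and the median of their absolute values was 0.37 against 0.33. For all 10 the groups did not overlap, as was the case for 58.3% of all genes. With calls this frequent, the sizes of the changes carry more than the number of calls.

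Il7r had the largest change of the 10. It was at 137, 138 and 141 CPM in the Female libraries and at 25.4, 23.4 and 24.1 CPM in the Male libraries. The lowest Female library was thus far above the highest Male library. The log2 change was -2.51 (SE 0.034, edgeR adjusted p = 1.11e-11), so that Male held 17.5% of the Female level. Of all genes tested, 0.925% had a larger absolute change. Il7r encodes the alpha chain of the IL-7 receptor (CD127), through which naive and memory T cells receive survival signals.

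The promoter of Il7r is shown because no other member changed as much. The window is chr15:9529827-9530126 on the minus strand of GRCm38.p6, from RefSeq, and runs 5′ to 3′ from 250 bases before to 50 bases after the annotated start. That start lies 300 bases inside the GENCODE gene. Capitals mark matches to letters of known motifs.
Il7r: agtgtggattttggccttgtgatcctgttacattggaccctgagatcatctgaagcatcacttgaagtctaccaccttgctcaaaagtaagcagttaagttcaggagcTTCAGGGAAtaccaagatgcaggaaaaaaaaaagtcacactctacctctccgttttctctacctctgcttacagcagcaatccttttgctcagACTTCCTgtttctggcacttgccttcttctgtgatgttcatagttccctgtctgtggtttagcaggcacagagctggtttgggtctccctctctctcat

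In it, the STAT letters TTCNNNGAA were matched once, by TTCAGGGAA, 142 bases before the start. The ETS letters AGGAAGT were matched once on the other strand, as ACTTCCT, 49 bases before the start. Both strands were searched, and the letters searched for besides these were GTAAACA (FOXO), AGGTGTGA (T-box), GAAA and GAAA with any 2 bases between them (IRF), and GGGA and TTCC with any 2 bases between them (NF-kappaB). Of 32851 promoter windows of this length in the RefSeq table, 8.3% held the STAT letters, 9.35% the ETS letters, 3.44% the IRF letters, 3.65% the FOXO letters, 1.28% the T-box letters and 1.47% the NF-kappaB letters. A match is a description of the letters and not of binding.

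Among the IL-2 receptor chains, the beta chain moved most. Il2rb was at 767, 775 and 775 CPM in Female and at 1294.5, 1328 and 1281 CPM in Male. The Male libraries were all above the Female libraries, with a log2 change of 0.75 (SE 0.016, edgeR adjusted p = 2.14e-10). Il2ra was at 922, 923 and 911 CPM in Female and at 1094, 1104 and 1081 CPM in Male. This was a smaller rise, with a log2 change of 0.25 (SE 0.014, edgeR adjusted p = 1.66e-07). Il2rg, which is X-linked, was at 242, 245 and 247 CPM in Female and at 264, 273 and 270 CPM in Male. Its log2 change was 0.14 (SE 0.021, edgeR adjusted p = 0.00031), and 76.4% of all genes had a larger absolute change.

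Of the private chains, Il15ra rose and Il4ra and Il21r fell slightly. Il15ra, which presents IL-15 to the beta and gamma chains, was at 12.0, 12.3 and 13.5 CPM in Female and at 18.6, 16.8 and 17.8 CPM in Male (log2 change 0.50, SE 0.064, edgeR adjusted p = 8.79e-05). Il4ra, the IL-4 receptor alpha chain, was at 442, 437 and 452 CPM in Female and at 398.5, 394 and 404 CPM in Male. Its log2 change was -0.15 (edgeR adjusted p = 8.04e-05), and Male held 89.9% of the Female level. Il21r was at 206, 204 and 209 CPM in Female and at 188, 198 and 191 CPM in Male, with a log2 change of -0.10 (edgeR adjusted p = 0.0055). The Male range lay below the Female range for both genes, by little.

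Il12rb1 and Il12rb2, the chains of the IL-12 receptor, did not move together. Il12rb1 was at 95.6, 94.1 and 95.8 CPM in Female and at 159.6, 164.6 and 162.4 CPM in Male. Male was 1.71-fold higher, with a log2 change of 0.77 (SE 0.023, edgeR adjusted p = 1.84e-09). Il12rb2 was at 264, 267 and 268 CPM in Female and at 274, 277 and 270.4 CPM in Male. Its log2 change of 0.04 did not pass the test (SE 0.0196, edgeR adjusted p = 0.115). It passed in 1 of 10 other settings, with genes limited to a mean log2 CPM of at least 1 (log2 change 0.07, edgeR adjusted p = 0.0116). The exons of Il12rb2 share 1519 bases with those of Serbp1 on the opposite strand. Serbp1 had 378.8 CPM in Female against 423.9 in Male, and whether the counting used strand was not given in the sources used here, so the part of Serbp1 reads in the Il12rb2 counts was not tested.

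Il18r1 was at 174, 183 and 181 CPM in Female and at 119, 118 and 121 CPM in Male. The Male libraries were all lower, with a log2 change of -0.59 (SE 0.026, edgeR adjusted p = 2.61e-08), and Male held 66.6% of the Female level. Il18rap, the second chain of the IL-18 receptor, had a mean of 102.2 CPM in Female against 108.5 in Male. Its log2 change was 0.09 (edgeR adjusted p = 0.0204), and this call was lost in several fits, among them the fit of all 12 samples (log2 change 0.06, edgeR adjusted p = 0.112) and the fit without Female replicate 2 (0.07, edgeR adjusted p = 0.0782).

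**Figure D2:**
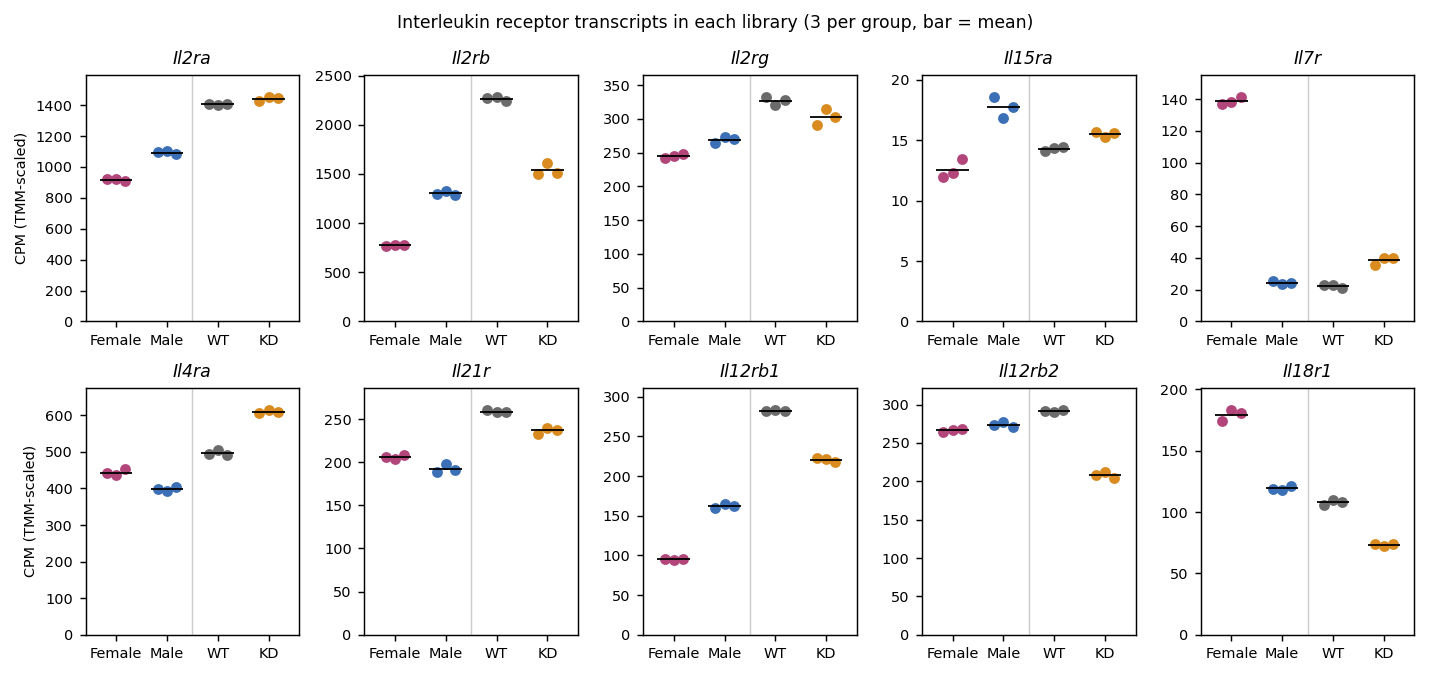
Scaled CPM of each receptor gene in each library, with a panel per gene, the 4 groups on the horizontal axis, points for the 3 libraries of a group and bars for the group mean. The grey line separates the 2 tables, which were scaled separately. Points within a group lie close together, Il7r drops from about 139 CPM in Female to 24.3 in Male, and Il2rb drops from 2265 CPM in WT to 1539 in KD.

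The effect of reducing Kdm5d in male cells was examined in KD against WT. Of the 10 receptor genes, 6 fell in KD (Il2rb, Il2rg, Il21r, Il12rb1, Il12rb2 and Il18r1), 2 rose (Il7r and Il4ra) and 2 did not pass the test (Il2ra and Il15ra). Of 20413 genes tested, 35.1% were called (16.8% with the higher level in KD, 18.4% with the lower). The median of the 10 log2 changes was -0.12, against 0.01 over all genes tested, and the median of the absolute values was 0.33 against 0.21. The groups did not overlap for any of the 10, against 46.8% of all genes that did not overlap. WT cells had received no Cas9, so effects of Cas9 and of lower Kdm5d cannot be told apart in these values.

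Among the IL-2 receptor chains, the beta chain again changed most. Il2rb was at 2273, 2282 and 2241 CPM in WT and at 1495, 1612 and 1509.8 CPM in KD. The highest KD library was well below the lowest WT library, with a log2 change of -0.56 (SE 0.025, edgeR adjusted p = 1.07e-07). Il2rg was at 332, 319.99 and 328 CPM in WT and at 290.4, 315 and 302 CPM in KD. The groups were close, with a log2 change of -0.11 (edgeR adjusted p = 0.0144), and the call was lost without WT replicate 1 (-0.10, edgeR adjusted p = 0.0551) and with upper-quartile scaling (-0.08, edgeR adjusted p = 0.0573). Il2ra was at 1411, 1404 and 1406.5 CPM in WT and at 1427, 1453 and 1444.5 CPM in KD. Its log2 change of 0.04 did not pass the test (SE 0.013, edgeR adjusted p = 0.059), and over 16 alternative fits it lay between 0.03 and 0.07, with a pass in 5.

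The promoter of Il2ra is shown beside that of Il7r as the member most used to mark activated CD8 T cells, whose transcript differed little between KD and WT. The window is chr2:11642542-11642841 on the plus strand of GRCm38.p6, from RefSeq, with the same span around the start and the same use of capitals.
Il2ra: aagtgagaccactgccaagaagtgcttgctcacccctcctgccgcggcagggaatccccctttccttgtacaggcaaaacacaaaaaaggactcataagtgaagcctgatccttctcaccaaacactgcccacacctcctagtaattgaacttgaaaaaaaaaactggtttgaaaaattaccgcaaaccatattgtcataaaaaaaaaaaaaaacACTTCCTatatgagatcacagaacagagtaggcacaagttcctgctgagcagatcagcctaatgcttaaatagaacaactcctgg

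It held the ETS letters, as ACTTCCT, 35 bases before the start, and none of the other motifs. The same 7 bases stand in the Il7r window. RefSeq promoter windows were found for 8 of the 10 genes. The windows of Il2rg, Il15ra, Il4ra and Il18r1 held none of the 6 motifs, that of Il21r held the FOXO letters (as TGTTTAC, 38 bases before the start) and that of Il12rb2 the STAT letters (as TTCTCAGAA, 123 bases before the start). Il2rb and Il12rb1 had no entry.

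Il7r and Il4ra were the members that rose in KD. Il7r was at 22.8, 22.7 and 21.1 CPM in WT and at 35.3, 40.0 and 40.2 CPM in KD. All KD libraries were above all WT libraries, with a log2 change of 0.80 (SE 0.057, edgeR adjusted p = 2.75e-06) or 1.74-fold. Il4ra was at 495, 504 and 491 CPM in WT and at 606, 614 and 609 CPM in KD, a log2 change of 0.29 (SE 0.017, edgeR adjusted p = 5.76e-07). Il21r, the neighbour of Il4ra, fell, from 260.2, 258 and 258 CPM in WT to 233, 239.7 and 238 CPM in KD (log2 change -0.13, edgeR adjusted p = 0.00057). Il15ra was at 14.1, 14.4 and 14.5 CPM in WT and at 15.7, 15.3 and 15.6 CPM in KD, and its log2 change of 0.12 did not pass the test (SE 0.048, edgeR adjusted p = 0.0869). It passed with upper-quartile scaling (0.15, edgeR adjusted p = 0.036) and in none of the other 15 fits.

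Il12rb1, Il12rb2 and Il18r1, of the IL-12 and IL-18 receptors, all fell in KD. Il12rb1 was at 282, 283 and 282 CPM in WT and at 222, 221 and 217 CPM in KD (log2 change -0.36, SE 0.019, edgeR adjusted p = 2.99e-07). Il12rb2 was at 292, 290.5 and 292 CPM in WT and at 208, 212 and 204 CPM in KD (log2 change -0.49, SE 0.020, edgeR adjusted p = 6.35e-08). Il18r1 was at 106, 110.1 and 108 CPM in WT and at 73.7, 72.2 and 74.0 CPM in KD (log2 change -0.56, SE 0.027, edgeR adjusted p = 1.95e-07). In each of the 3 genes the KD libraries were well below the WT libraries. Il18rap fell further than Il18r1, from 137.9 to 78.8 CPM (log2 change -0.81, edgeR adjusted p = 7.31e-08). Serbp1, which overlaps Il12rb2, was higher in KD (log2 change 0.18, edgeR adjusted p = 0.00058). The part of Serbp1 reads in the Il12rb2 counts was not tested.

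Set side by side, Il2rb, Il2rg and Il12rb1 were higher in Male than in Female and lower in KD than in WT, and Il7r and Il4ra were lower in Male and higher in KD. These 5 genes were thus called in opposite directions in the 2 comparisons, though the Il2rg call in KD was lost in some fits, as given above. The share of all genes with this pattern was not computed, so the count cannot be read as particular to the receptors. Il21r and Il18r1 were lower in both Male and KD. Il2ra and Il15ra rose in Male and were not called in KD, and Il12rb2 was not called in Male and fell in KD. Sizes differed: Il7r had a log2 change of -2.51 in one comparison and 0.80 in the other, Il4ra of -0.15 and 0.29, and Il18r1 of -0.59 and -0.56. The 2 comparisons share no sample, and no test of the difference between them was made.

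**Figure D3:**
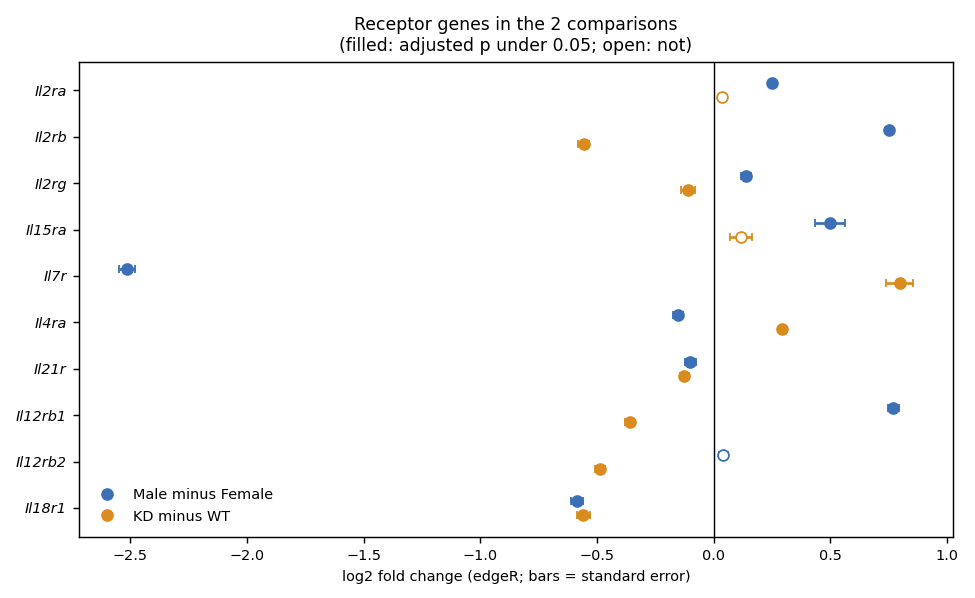
Log2 change of each receptor gene (horizontal axis) for Male minus Female and for KD minus WT, with the standard error as bars, filled points for genes called at an adjusted p under 0.05 and open points for others. Il7r stands apart at -2.51 in Male against Female, and 5 genes called in both comparisons lie on opposite sides of 0. Il12rb2, called only in KD against WT, also has values of opposite sign.

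Since these receptors are built from several chains, the balance of paired chains was read within each library, which needs no scaling between libraries. Il2rb and Il2rg also serve in more than 1 receptor, as given above. A total of 10 differences were tested, 5 ratios in each of 2 comparisons. The exact two-sided permutation test gave p = 0.1 for each, the smallest that 3 against 3 libraries allow, and 0.1 after Benjamini-Hochberg adjustment. In no case did the groups overlap. Single genes did not overlap between groups for 58.3% of those tested in Male against Female and 46.8% in KD against WT. The share among ratios of other gene pairs was not computed, so the separation cannot be read as particular to these chains. The log2 ratio of Il2ra over Il2rb, per kilobase, was -0.15, -0.16 and -0.18 in Female and -0.66, -0.68 and -0.66 in Male. It was -1.10, -1.11 and -1.09 in WT and -0.48, -0.56 and -0.48 in KD. The alpha chain transcript was thus 0.893 of the beta chain transcript in Female against 0.631 in Male, and 0.466 of it in WT against 0.704 in KD. With the longest transcript as the length, Il2ra was instead above Il2rb in Female, at 208.2 against 184.1 CPM per kb.

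The ratio of Il7r to Il2rg, its signalling partner, was 0.291 in Female against 0.0463 in Male, and it was 0.0347 in WT against 0.065 in KD. The difference in its log2 value was -2.65 for Male minus Female and 0.91 for KD minus WT. The ratio of Il12rb1 to Il12rb2 was 0.33 in Female and 0.548 in Male, a difference of 0.73 on the log2 scale, and 0.895 in WT and 0.978 in KD, a difference of 0.13. With the longest transcript as the length, Il12rb1 was above Il12rb2 in WT (98.3 against 97.3 CPM per kb) and in KD (76.6 against 69.4). The part of Serbp1 reads in the Il12rb2 counts was not tested. The ratio of Il18r1 to Il18rap was 2.46 in Female against 1.54 in Male, and it was 1.1 in WT against 1.3 in KD. The ratio of Il15ra to Il2rb was 0.0157 in Female against 0.0131 in Male, and it was 0.00609 in WT against 0.00973 in KD. Transcript ratios do not give the ratio of the chains on the cell surface.

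**Figure D4:**
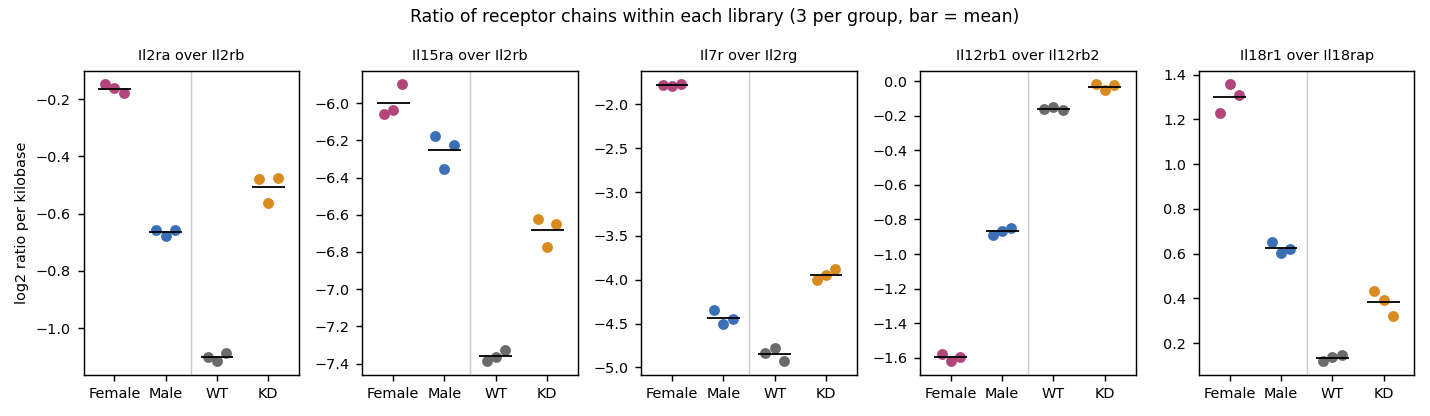
Log2 ratio of 5 pairs of receptor chains, per kilobase of exons, in each library, with points for the 3 libraries of a group and bars for the mean. The ratio of Il2ra to Il2rb is lower in Male than in Female and higher in KD than in WT, and that of Il7r to Il2rg is highest in Female.

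Other interleukin receptor chains were taken from a list of 28. In Male against Female, 20 passed the low-count filter and 13 were called, 6 higher and 7 lower in Male (median log2 change of the 20 tested -0.0045, against 0.01 over all genes). Over all genes tested, 49.8% were called. Il1rl1, the IL-33 receptor, rose from 1.49 CPM in Female to 2.84 in Male (log2 change 0.92, edgeR adjusted p = 0.00096). Il10ra, the IL-10 receptor alpha chain, rose from 65.5 to 101.6 CPM (log2 change 0.63, edgeR adjusted p = 2.14e-08), and Il1rap, a chain shared by IL-1 family receptors, from 14.0 to 16.5 CPM (0.24, edgeR adjusted p = 0.0113). The Il1rap call was lost without Male replicate 1 (0.20, edgeR adjusted p = 0.0537) or Male replicate 2 (0.22, edgeR adjusted p = 0.0505). Csf2rb and Csf2rb2, near-identical beta chain genes whose reads the counting could split, were called lower from very low levels, 0.292 and 0.187 CPM in Female against 0.0072 CPM in Male for each. Among the genes that fell and whose mean log2 CPM reached 1, the largest changes were in the IL-6 receptor chains Il6ra, from 12.2 to 3.88 CPM (log2 change -1.65, edgeR adjusted p = 8.01e-08), and Il6st (gp130), from 151.6 to 94.3 CPM (-0.68, edgeR adjusted p = 3.57e-08). Il17ra, a chain of the IL-17 receptor, fell from 281 to 214 CPM (-0.39, edgeR adjusted p = 9.18e-08).

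In KD against WT, 17 of the 28 were tested and 11 called, 6 higher and 5 lower in KD (median log2 change of those tested -0.0037, against 0.01). Over all genes tested, 35.1% were called. Il6ra and Il6st were higher in KD here, at 4.14 against 2.19 CPM (log2 change 0.92, edgeR adjusted p = 0.00067) and at 58.8 against 42 CPM (0.49, edgeR adjusted p = 7.69e-06). Il3ra, the IL-3 receptor alpha chain, was also higher (0.33, edgeR adjusted p = 0.0011). Il1rl1 fell from 6.7 to 3.06 CPM (-1.13, edgeR adjusted p = 1.89e-05) and Il10rb, a chain shared by the IL-10 and IL-22 receptors, from 77.2 to 55.1 CPM (-0.49, edgeR adjusted p = 1.75e-06). The others that fell were Il18rap, given above, Il10ra and Il17ra.

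Transcripts of the ligands were scarce. Of 11 listed ligand genes, 10 stayed under 1 CPM in all 12 libraries, and Il18 reached 1.42 CPM in WT or KD. Il9, Il21 and Il12b had 0 counts in all 12 libraries, which allows up to 3 counts in each (0.0381 CPM in the smallest library, counting error only). Il2 reached at most 53 counts in a Female or Male library and 82 in a WT or KD library. In Male against Female, Il4 and Il18 were tested and neither passed, with edgeR adjusted p of 0.0603 and 0.0803. In KD against WT 4 were tested and Il4 was called, at 0.122 CPM in KD against 0.42 in WT (log2 change -1.79, edgeR adjusted p = 0.0035).

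Of the 15 listed signal transducers, all were tested in both tables. In Male against Female 14 were called, 4 higher (among them Jak3, Irak4 and Myd88) and 10 lower, and Stat5a was not called. Over all genes tested, 49.8% were called, 23.5% higher and 26.3% lower. Jak3, the kinase bound to the gamma chain, rose from 219 to 279 CPM (log2 change 0.35, edgeR adjusted p = 1.57e-07). Jak1, the other kinase named above for the IL-2 receptor, went the other way, from 552 to 508 CPM (-0.12, edgeR adjusted p = 0.00025). Stat5b, one of a pair of STAT5 genes, fell from 223 to 147 CPM (-0.60, edgeR adjusted p = 3.59e-08), while Stat5a had a log2 change of 0.09 (edgeR adjusted p = 0.0584). Stat5a passed in 3 of 16 alternative fits, with genes limited to those whose mean log2 CPM reached 1 (0.11, edgeR adjusted p = 0.0096), with counts divided by 4 (0.09, edgeR adjusted p = 0.0308) and without Female replicate 2 (0.12, edgeR adjusted p = 0.0162), and was at 0.06 without Female replicate 3. Stat4, the transducer of IL-12, fell from 217 to 170.3 CPM (-0.35, edgeR adjusted p = 7.49e-07). Irak4 and Myd88 rose with log2 changes of 0.32 and 0.27, and Irak2 and Jak2 fell with -0.85 and -0.40.

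Over all genes tested in KD against WT, 35.1% were called, 18.4% lower. Of the 15 transducers, 11 were called, 2 higher (Jak3 among them) and 9 lower. The 4 not called were Stat3, Stat5a, Irak1 and Traf6. Jak3 rose from 271 to 340 CPM (log2 change 0.33, edgeR adjusted p = 6.1e-07), and Jak1 fell from 531 to 419 CPM (-0.34, edgeR adjusted p = 4.55e-07). Stat4 fell from 149 to 94.5 CPM (-0.66, edgeR adjusted p = 2.65e-08), in the same direction as Il12rb1 and Il12rb2. Irak2 and Jak2 had log2 changes of -0.72 and -0.58, and Myd88 of -0.15. Stat5b had -0.09 (edgeR adjusted p = 0.0357), and that call was lost without each of 5 libraries in turn, for example without WT replicate 1 (-0.08, edgeR adjusted p = 0.102). The median over the 15 was -0.20 in Male against Female and -0.15 in KD against WT, against 0.01 over all genes in both.

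Of 14 genes known to respond to STAT5 or to gamma chain cytokines, 13 were called in Male against Female. Of these, 7 were higher and 6 lower, and Myc was not called. Over all genes tested, 49.8% were called and the median was 0.01, and the median of the 14 was 0.02. Those with the largest rises were the cytokine genes Lta (log2 change 1.02) and Osm (0.95), and Cish, a feedback inhibitor of IL-2 signalling, which rose from 178 to 273.5 CPM (0.62, edgeR adjusted p = 9.75e-09). The largest falls were in the kinase gene Pim2 (-0.55), and in Socs2 (-0.47) and Socs3 (-0.42), which encode feedback inhibitors of cytokine signalling. In KD against WT, 11 passed, 3 higher and 8 lower, with Socs2, Socs3 and Osm not called and a median of -0.07. Over all genes tested, 35.1% were called and the median was 0.01. Pim1, Pim2 and Myc were higher in KD, with log2 changes of 0.23, 0.17 and 0.12. The Myc call (edgeR adjusted p = 0.0479) was lost in 5 of the 6 fits without one library, and without KD replicate 2 the log2 change was 0.06 (edgeR adjusted p = 0.114). Bcl2l1 and Mcl1, which encode survival proteins, fell with -0.60 and -0.21, and Lta with -0.49.

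Of 18 transcription factors known to act on these receptor genes, all were called in Male against Female, 2 higher and 16 lower, with a median of -0.41. Over all genes tested, 49.8% were called, 26.3% lower, with a median of 0.01. Eomes, a T-box factor that acts on Il2rb, rose from 37.3 to 120.1 CPM (log2 change 1.69, edgeR adjusted p = 3.47e-10), and Nfatc2, a factor of T cell receptor signalling, from 155 to 206.5 CPM (0.41, edgeR adjusted p = 3.43e-06). Bach2 and Klf2, factors of naive and resting T cells, fell with -1.48 and -1.38, as did Tcf7 with -1.45. In KD against WT, 13 of the 18 were called, 3 higher and 10 lower, with a median of -0.10. Over all genes tested, 35.1% were called, 18.4% lower, with a median of 0.01. Foxo3, Tcf7 and Prdm1 were higher in KD, with 0.32, 0.30 and 0.27. Runx1 fell from 9.09 to 3.96 CPM (-1.20, edgeR adjusted p = 2.88e-06), Runx3 from 328 to 205 CPM (-0.67, edgeR adjusted p = 1.55e-08) and Ikzf1 from 530.5 to 435 CPM (-0.29, edgeR adjusted p = 1.04e-06). The 5 not called were Gabpa, Klf2, Eomes, Bach2 and Nfatc1.

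**Figure D5:**
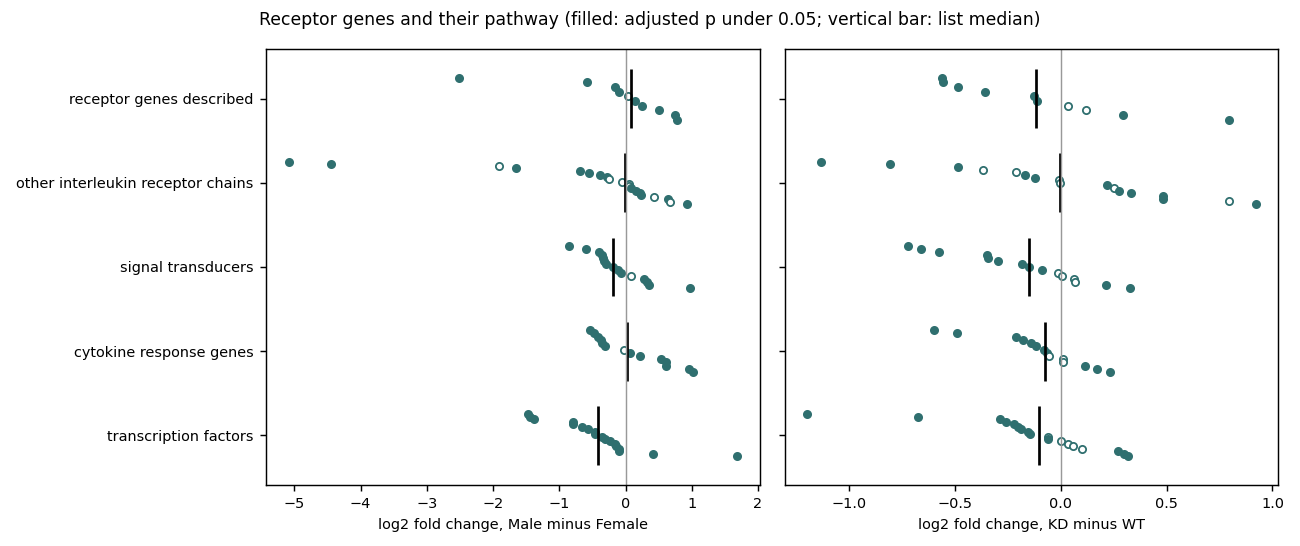
Log2 changes (horizontal axes) of the receptor genes and of 4 lists of genes of their pathway, for Male minus Female (left) and KD minus WT (right), with a point per tested gene, filled where called at an adjusted p under 0.05, and a vertical bar at the list median. The median of the transcription factors is the lowest on the left, at -0.41, and points of each list lie on both sides of 0.

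The genes most like 3 of the receptors were found by the smallest root mean square difference of log2 CPM over the 12 samples, each table centred on its own mean, among 11873 other genes whose mean log2 CPM reached 1 in both tables. For Il7r the nearest was Kif13a, at a difference of 0.172, with log2 changes of -2.70 in Male against Female and 0.52 in KD against WT. Tnfrsf4 (OX40) followed at 0.262, with log2 changes of -1.83 and 0.96, and Gpld1 at 0.266, with -2.69 and 0.12. Il7r itself had -2.51 and 0.80, so Gpld1 was like it mainly in Male against Female. Il12rb1 had closer neighbours, namely Chsy1 at 0.0194, the interferon-induced GTPase gene Gbp9 at 0.0297 and Cap1 at 0.0346. Chsy1 had log2 changes of 0.77 and -0.37, against 0.77 and -0.36 for Il12rb1. Il18r1 was nearest to Saraf (0.0301), Dennd4a (0.0327) and Ngly1 (0.0371). The 12 samples fall into 4 groups of 3, so they are not 12 separate conditions.

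Apart from the overlap of Il12rb2 with Serbp1 given above, sequence shared with other genes was as follows. The share of 31-base subsequences also found in transcripts of another gene was at most 1.8% for 9 of the 10. It was 28.7% for Il2rg, whose exons overlap those of Gm20489 on the same strand by 728 bases. Gm20489 was at no more than 0.1 CPM in any library, against at least 242 CPM for Il2rg, and how the authors' counting split reads between them was not tested. Il4ra overlaps Gm44876 on the opposite strand by 571 bases, and Gm44876 was at no more than 1.44 CPM.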

How the data were processed

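Both deposited tables hold whole-number gene counts, not normalised, with 1 column per sample, per the file headers. HISAT2, StringTie, bcl2fastq 2.20.0, DESeq2 and the mm10 build are named in the submitters' processing notes, without their roles. The annotation, strand setting and filters of the counting were not given in the sources used here. Libraries were stranded and depleted of ribosomal RNA, per the labels' protocols. Groups came from the sample titles. Symbols and positions came from GENCODE M21 by identifier, which matched 55141 of 55487 identifiers. Female with Male, and WT with KD, were fitted separately by edgeR 4.0.16 under R 4.3.3 (TMM, filterByExpr, quasi-likelihood test, Benjamini-Hochberg adjustment over all genes tested, called under 0.05), with no replicate block. Standard errors were derived from F, as the size of the log2 change over its square root. Log2 CPM used a prior count of 2. DESeq2 1.42.0 and limma 3.58.1 were alternatives. Receptor genes and lists were chosen with earlier results of these data known. All receptor genes are described. Of the other listed genes, up to 3 called in each direction with the largest change and a mean log2 CPM of at least 1 are named, with direct partners. Il4, and names given to complete a count of 5 or fewer, were chosen after their values were seen. Values of some listed genes are not reported here.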

Additional observations from a re-analysis of the deposited data

How the results depend on the processing

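Counts of called genes, and log2 changes of the receptor genes and most other named genes, were recomputed in other settings, 10 in nearly all cases. They were also recomputed in 6 fits per comparison that left out one library. Chain ratios were recomputed without each library and in 1 other setting, with counts thinned to the smallest library. Levels per kilobase were recomputed in 2 other settings. List medians, marker sums and likeness were not recomputed. Of 320 recomputed log2 changes of the receptor genes, 311 kept their direction and their side of the threshold, 2 lost the call, 7 gained it and 0 changed direction. For Male against Female, 9 or 10 receptor genes were called, and for KD against WT 7 to 9. Over all genes, the other settings called 8813 to 10224 in Male against Female (9190 to 9399 without one library) and 6536 to 7385 in KD against WT (6073 to 6685). Il2ra in KD passed with upper-quartile scaling (0.07, edgeR adjusted p = 0.00252), a mean log2 CPM of at least 1, limma-voom, all 12 samples in 1 fit and counts divided by 4, and in no fit without a library. The cause was not tested. Upper-quartile scaling moved the share of KD calls that were higher from 47.7% to 55%. With the replicate number as a block, 9740 genes passed in Male against Female, 9 of them receptor genes, and 6688 in KD against WT, with 8. Deviations from the group mean were correlated between libraries over all genes tested. For same-numbered libraries the correlations were between -0.0011 and 0.018 for Male and Female and between -0.04 and 0.021 for WT and KD. For libraries with different numbers they were between -0.02 and 0.019, and between -0.035 and 0.041. Genes with few counts weigh in this measure, so a shared deviation in part of the genes could be missed. The block ended the calls of Stat5b (-0.09, edgeR adjusted p = 0.0614) and Myc (0.11, edgeR adjusted p = 0.0774) in KD, and no other call among the named genes that were recomputed. Kdm5d in KD was between -1.25 and -1.18 in each fit run for it. Depth limits little here, as the receptor gene with the fewest counts held at least 1013 per library, but arms of 3 libraries allow no exact p below 0.1.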
